A study of Mus musculus with 8 samples.

Results

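The members described here were the mouse genes of the Toll-like receptors (TLRs) that sit at the cell surface, Tlr1, Tlr2, Tlr4, Tlr5 and Tlr6, with the co-receptors Cd14, Ly96 and Cd180 and the sorting adaptors Tirap and Ticam2. They were chosen by name, and each was read from the probe set of its symbol with the highest mean signal. Of the 10 members 9 had a probe set, 13 probe sets in all, among 18194 named genes and 45101 probe sets. No probe set was listed for Ticam2, so it has no value here. All 9 measured members were above the limit of expression used for testing, at which 12976 genes were tested.

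The signals came from tumour tissue of mice that had been injected subcutaneously with MOPC cells, a line of mouse oropharyngeal carcinoma. The 4 groups held 2 arrays each: tumours of TLR3,7,9 k.o. hosts at day 6 after inoculation (KO day 6), of wild-type C57BL/6 hosts at day 6 (WT day 6), and of the same 2 host genotypes at day 4 (KO day 4 and WT day 4). The deletion is that of the host, and all groups shared the same injected cells, whose own Tlr genes are intact. The labels give neither the age of the mice nor the meaning of a replicate number, nor whether the arrays of day 4 came from separate mice. The p-values therefore rest on spread between arrays of a group that may be technical. In limma this spread was pooled over the 4 groups and drawn towards that of other genes. Its SE is thus not that of the compared arrays alone. The genotype of the host was visible in Tlr7, which had signals of 80.1 and 10.8 in KO day 6, 471.3 and 466.1 in WT day 6, 70 and 25.2 in KO day 4, and 382.9 and 673.4 in WT day 4. Its log2 fold change of KO against WT over both days was -3.20 ± 0.433 (SE), at an adjusted p of 0.0848 in limma, so that even this deleted gene did not pass 0.05. Tlr3 was likewise at 224 to 427.2 on the 4 KO arrays and 543.9 to 811.1 on the 4 WT arrays. Tlr9, in contrast, was dim on all 8 arrays (20.8 to 137.6) and did not follow the deletion. Its genotypes overlapped at day 4, and at day 6 it was higher in KO (123.7 and 84.2) than in WT (20.8 and 58.5).

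Some arrays held signal of other tissues. The sum of 5 skeletal muscle markers was 37073 in KO day 6 replicate 2, 15296 in KO day 4 replicate 2 and 104180 in WT day 4 replicate 2, and 578.6 to 823.1 on the other 5 arrays. The sum of 5 markers of cornified skin was 14795 in KO day 6 replicate 2, the array that was lowest in Tlr4 and Cd180, and 656.7 to 754.7 elsewhere. With KO day 6 replicate 2 and WT day 4 replicate 2 left out, a choice made after the data were seen, the log2 fold change of KO against WT at day 6 was 0.301 for Tlr4 and 0.116 for Cd180, and Cd14 was called, that is, had an adjusted p under 0.05 in limma, over both days (-1, adjusted p = 0.0279). This fit kept KO day 4 replicate 2, left 1 array each in KO day 6 and WT day 4, whose spread was taken from the other groups, and for Cd14 kept the highest array of all, without which the value over both days was -0.284. The part of these tissues in the other results was not tested. The sum of 6 markers of epithelial carcinoma, the labelled tumour, was 82515 in KO day 6 replicate 2, the array with skin markers, 45781 to 54792 on the other KO arrays and 42040 to 49125 on WT arrays. The 2 arrays of a group correlated at a Spearman rho of 0.9411 to 0.9526, and the ratio of 3' to 5' control probes, a sign of RNA quality, lay between 0.804 and 0.8172 (Gapdh) and between 1.088 and 1.168 (actin).

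The surface TLRs recognise molecules of bacteria and fungi from outside the cell, while TLR3, TLR7 and TLR9 read nucleic acids in endosomes. TLR2 pairs with TLR1 or TLR6 to bind lipopeptides, TLR5 binds flagellin, and TLR4 binds lipopolysaccharide together with MD-2, the product of Ly96, after CD14 has handed the lipid over. TIRAP brings MyD88 to TLR2 and TLR4 at the plasma membrane, TICAM2 brings TRIF to TLR4 in endosomes, and macrophages, monocytes and neutrophils are among the cells best known for carrying these receptors. In tumours they can also be engaged by molecules released from damaged cells and matrix.

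The promoters of 4 receptor genes are shown because Tlr5 and Tlr6 ran together over the arrays, while Tlr1 and Tlr2 differed from them between the days. Each run is the sequence of RefSeq in build GRCm38.p6, 250 bases before to 50 bases after a start site, written 5' to 3' on the strand of the gene. Capitals mark the ETS core GGAAGT, which the myeloid factor PU.1 can bind, and the NF-kappaB motif, each searched on both strands. Tlr5 lies on the plus strand at chr1:182954538-182954837, Tlr6 on the minus strand at chr5:64959117-64959416, Tlr1 on the minus strand at chr5:64933509-64933808 and Tlr2 on the minus strand at chr3:83841559-83841858.
Tlr5: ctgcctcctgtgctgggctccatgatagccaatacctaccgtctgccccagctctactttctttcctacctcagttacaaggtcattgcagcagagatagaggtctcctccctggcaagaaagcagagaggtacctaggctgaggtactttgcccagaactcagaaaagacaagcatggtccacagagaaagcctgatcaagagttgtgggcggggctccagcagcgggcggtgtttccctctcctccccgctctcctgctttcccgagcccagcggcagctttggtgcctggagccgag
Tlr6: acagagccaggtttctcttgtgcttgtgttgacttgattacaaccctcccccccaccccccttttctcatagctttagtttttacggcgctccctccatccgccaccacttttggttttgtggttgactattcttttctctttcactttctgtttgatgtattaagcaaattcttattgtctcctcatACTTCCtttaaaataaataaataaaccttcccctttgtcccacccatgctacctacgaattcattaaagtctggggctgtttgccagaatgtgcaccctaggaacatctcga
Tlr1: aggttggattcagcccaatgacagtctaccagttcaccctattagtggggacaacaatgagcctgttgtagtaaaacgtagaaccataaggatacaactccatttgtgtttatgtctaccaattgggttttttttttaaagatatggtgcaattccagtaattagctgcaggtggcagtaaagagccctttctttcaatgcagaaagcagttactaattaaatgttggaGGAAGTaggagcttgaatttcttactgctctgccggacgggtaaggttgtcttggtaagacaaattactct
Tlr2: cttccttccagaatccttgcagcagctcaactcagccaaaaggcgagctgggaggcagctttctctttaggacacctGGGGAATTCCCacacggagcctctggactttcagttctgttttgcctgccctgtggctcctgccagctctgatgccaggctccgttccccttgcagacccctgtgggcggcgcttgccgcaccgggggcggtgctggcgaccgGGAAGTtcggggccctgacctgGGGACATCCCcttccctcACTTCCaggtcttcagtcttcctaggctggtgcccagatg

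Only the Tlr2 window held the NF-kappaB motif, at 2 places that begin 173 and 8 bases before the start site, and it also held 2 ETS cores. The motif was found in 8.46% of 32851 mouse promoters of this length and the ETS core in 23.8%. The Tlr1 window held 1 ETS core, which begins 21 bases before the start site and lies in the longer match GAGGAAGT, found in 3.2% of promoters. The Tlr6 window held 1 ETS core on the opposite strand and Tlr5 held none. The GC box GGGCGG, found in 35.7% of promoters, was in the windows of Tlr2 and Tlr5 and not in those printed of Tlr1 and Tlr6. Tlr1 and Tlr6 are neighbours on chromosome 5, and each has a second listed start site, of which the one of Tlr6 also held an ETS core and the one of Tlr1 did not. Of the other members, Cd180 held 1 ETS core, the same one in the overlapping windows of its 2 start sites. Tirap held 1 in 1 of its 2 windows, and none of these windows held the NF-kappaB motif. These are matches of letters, not binding sites.

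The signal of every array is shown first, since the groups hold 2 arrays each. Signals are linear values that the authors scaled to the same trimmed mean of 1000 on every array, and a signal of one gene is not set against that of another. Of the 9 members, 8 had a lower mean log2 signal in KO than in WT on each day, and Tirap a higher one. Among all genes tested 51.7% were lower in KO at day 6 and 48.3% at day 4. Some members ran together over the arrays, so the 8 are not separate observations.

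**Figure D1:**
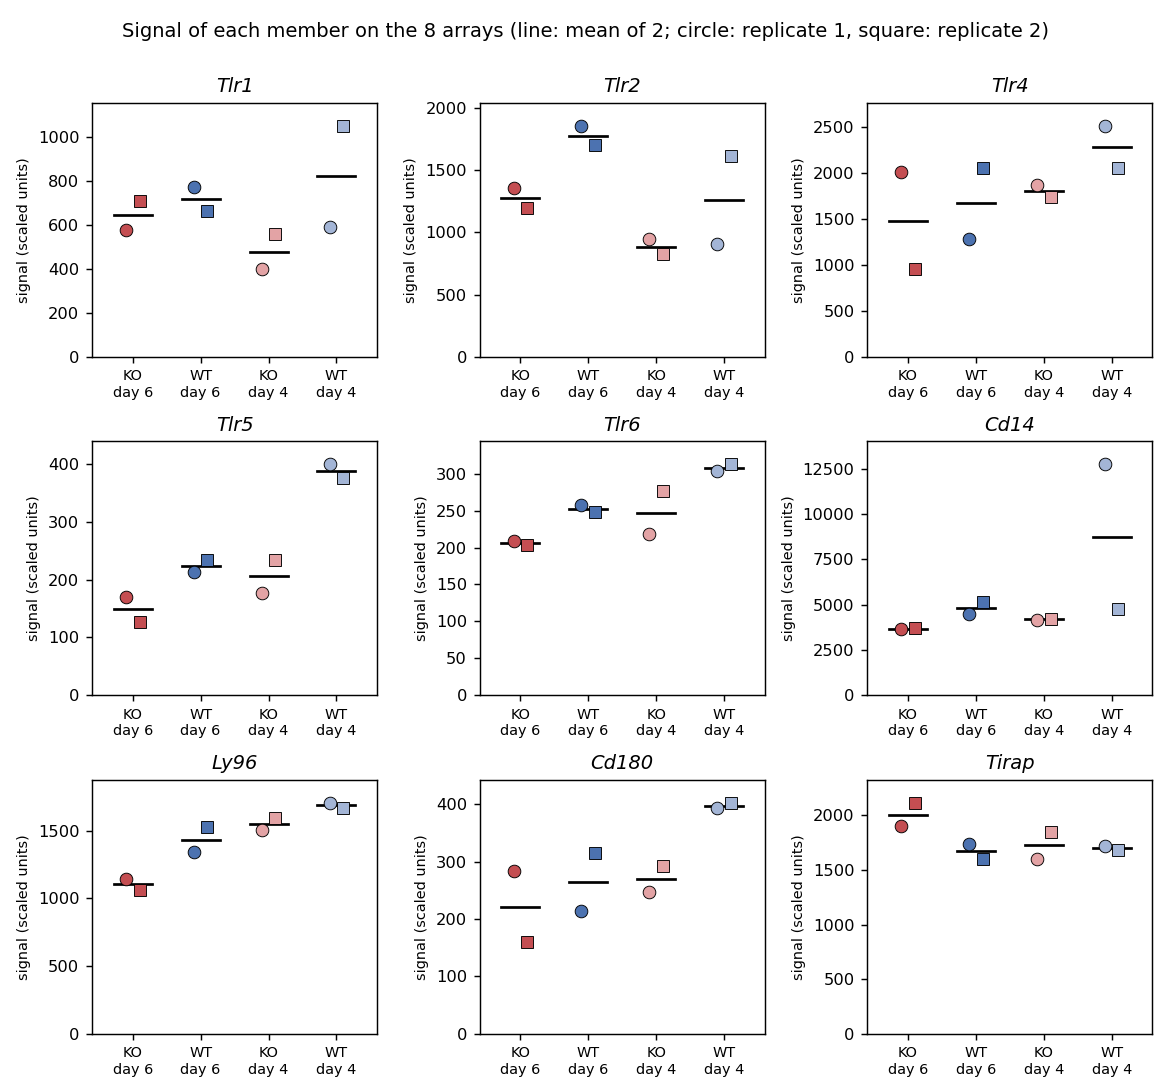
Signal (scaled units, linear axis from 0) of the 9 measured members on the 8 arrays, with the 2 arrays of a group as a circle and a square and their mean as a line. In Tlr5, Tlr6, Cd14 and Ly96 both KO arrays lay below both WT arrays on each day, and 1 WT day 4 array stood at 12734 in Cd14.

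Tlr5, the flagellin receptor, had signals of 170.9 and 127.3 in KO day 6, 213.3 and 234.8 in WT day 6, 176.6 and 234.6 in KO day 4, and 399.5 and 375.7 in WT day 4. The KO arrays were the lower ones on both days without overlap, WT day 4 stood above all others, and KO day 4 and WT day 6 overlapped. Over both days the log2 fold change of KO against WT was -0.71 ± 0.184 (SE, n = 4 arrays per genotype), the furthest from 0 among the members, with an adjusted p of 0.383 in limma over all genes tested. Tlr6, which forms a pair with TLR2 for diacylated lipopeptides, had 209.3 and 203.1 in KO day 6, 257.3 and 247.6 in WT day 6, 218.6 and 276.2 in KO day 4, and 303.1 and 312.5 in WT day 4. Its groups stood in the same order as those of Tlr5, again with overlap between KO day 4 and WT day 6. The log2 fold change was smaller, at -0.29 ± 0.161 over both days (adjusted p = 0.658, limma). The probe sets of Tlr5, Tlr6 and Cd180 stood lowest among those used, at the 56.4, 57.5 and 58.8 percentile of all probe sets. The Tlr5 signal of 127.3 in KO day 6 replicate 2 was below the median of that array, 138.4.

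Tlr2 had signals of 1353.9 and 1194.9 in KO day 6, 1855.7 and 1699.1 in WT day 6, 944.2 and 826.3 in KO day 4, and 905.4 and 1613.8 in WT day 4. The genotypes were apart at day 6, with KO at a log2 fold change of -0.48 ± 0.245 against WT (adjusted p = 0.823, limma), and overlapped at day 4. Tlr1, its partner for triacylated lipopeptides, had 576.7 and 711.7 in KO day 6, 775.7 and 663.4 in WT day 6, 399.4 and 558.6 in KO day 4, and 593.4 and 1052.2 in WT day 4. Here the genotypes overlapped at day 6 and were apart at day 4 (log2 fold change -0.72 ± 0.286, adjusted p = 0.667, limma). WT day 4 replicate 2 carried the highest Tlr1 signal and the highest Tlr2 signal of day 4, so that the 2 WT day 4 arrays differed by 0.81 in Tlr1 and 0.823 in Tlr2 on the log2 scale. Without that array the log2 fold change over both days was -0.239 for Tlr1 and -0.256 for Tlr2, and without WT day 4 replicate 1 it was -0.644 and -0.667.

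Tlr4, the receptor of lipopolysaccharide, had signals of 2003.5 and 950.1 in KO day 6, 1280.5 and 2055.9 in WT day 6, 1866.3 and 1737.3 in KO day 4, and 2508.9 and 2052.4 in WT day 4. The genotypes overlapped at day 6, where the 2 KO arrays alone differed by 1.06 on the log2 scale, and the fitted difference at day 6 was -0.23 ± 0.336. It turned to 0.301 without KO day 6 replicate 2. At day 4 the KO arrays were below the WT arrays (log2 fold change -0.33 ± 0.336, adjusted p = 0.931, limma). Of 3 further probe sets of Tlr4, 2 gave values below 0 on both days (-0.202 and -0.266 at day 6), and the third was dim, at the 12.2 percentile of all probe sets.

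Cd180, a relative of TLR4 that lacks its signalling domain and that works with MD-1, had 283.2 and 159 in KO day 6, 213.9 and 315.4 in WT day 6, 246.2 and 292 in KO day 4, and 392.9 and 402.1 in WT day 4. It resembled Tlr4 in that KO day 6 replicate 2 was the lowest array and WT day 4 the highest group. The genotypes overlapped at day 6 and not at day 4, and KO against WT over both days was -0.41 ± 0.22 (adjusted p = 0.653, limma), and -0.212 without KO day 6 replicate 2. Ly86, the gene of its partner MD-1, was at -0.42 ± 0.221 (adjusted p = 0.643, limma). B cells are a known source of Cd180, and the summed signal of the 4 measured B cell markers was 189.1 to 344.9 on KO arrays and 233.1 to 500.4 on WT arrays, with Cd79a at 4.2 to 29.3 throughout, near the bottom of the scale.

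Ly96 had signals of 1140.9 and 1064.1 in KO day 6, 1344.9 and 1524 in WT day 6, 1507.9 and 1595.9 in KO day 4, and 1704.7 and 1667.9 in WT day 4. The replicates of this gene lay close together, the KO arrays were the lower ones on both days, and within each genotype day 6 lay below day 4. KO against WT was -0.37 ± 0.131 at day 6 (adjusted p = 0.76, limma), -0.12 ± 0.131 at day 4 (adjusted p = 0.942) and -0.25 ± 0.0929 over both days (adjusted p = 0.517). Only WT day 6 and KO day 4 overlapped among neighbours in the order of the groups.

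Cd14 had signals of 3627.8 and 3718.4 in KO day 6, 4503.5 and 5137.6 in WT day 6, 4175.7 and 4182.7 in KO day 4, and 12734 and 4735.8 in WT day 4. The KO arrays agreed closely with each other on each day and lay below both WT arrays, while the 2 WT day 4 arrays differed by 1.42 on the log2 scale. KO against WT was -0.39 ± 0.364 at day 6 (adjusted p = 0.89, limma), -0.89 ± 0.364 at day 4 (adjusted p = 0.681) and -0.64 ± 0.257 over both days (adjusted p = 0.536). The SE was the same on both days because the spread was pooled over the 4 groups. At day 6 the 2 arrays of a group differed by only 0.0354 in KO and 0.189 in WT on the log2 scale. The day 4 value rested on WT day 4 replicate 1, the array at 12734. Without it the log2 fold change at day 4 was -0.18 (adjusted p = 0.678), and without WT day 4 replicate 2 it was -1.6 (adjusted p = 0.0171), so that Cd14 was then called, with the lone array of the group assumed to vary like the others. Over both days it was then -0.996 (adjusted p = 0.0114). WT day 4 replicate 1 also had the highest summed signal of the 7 measured neutrophil markers, 12078, against 1202.6 to 7827.6 on the other arrays, and neutrophils are among the cells that express Cd14. Their part in the result was not tested.

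Tirap was the member that ran the other way. It had 1900.2 and 2114.5 in KO day 6, 1740.9 and 1600.9 in WT day 6, 1605.3 and 1845.5 in KO day 4, and 1718 and 1683.1 in WT day 4. Both KO day 6 arrays were above all 6 other arrays, at a log2 fold change of 0.26 ± 0.133 against WT day 6 (adjusted p = 0.82, limma), and the genotypes overlapped at day 4 (0.02 ± 0.133). Its second probe set gave 0.249 at day 6 and -0.0335 at day 4.

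Of the 9 members, 0 were called between KO and WT at an adjusted p under 0.05 in limma at day 6, 0 at day 4 and 0 over both days. Among all genes tested the share called was 0.0154% at day 6, 0.0154% at day 4 and 0.0308% over both days, so few genes of any kind passed. Before adjustment, p was under 0.05 for 1 member at day 6 (Ly96), 3 at day 4 (Tlr1, Tlr5 and Cd14) and 4 over both days (Tlr2, Tlr5, Cd14 and Ly96). On the same values the methods' t-test gave 2, 2 and 1 members before adjustment and 0 in each comparison after it, and after adjustment 0 of all genes as well. The median log2 fold change of the 9 members was -0.273 at day 6, -0.446 at day 4 and -0.406 over both days, beside -0.00966, 0.00813 and 0.000606 over all genes tested. The difference between the KO effects of the 2 days was called for 0 members, and for 0% of all genes, with 0 members at an unadjusted p under 0.05. Of all genes, 264 above 0 and 304 below were under 0.05 there before adjustment.

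**Figure D2:**
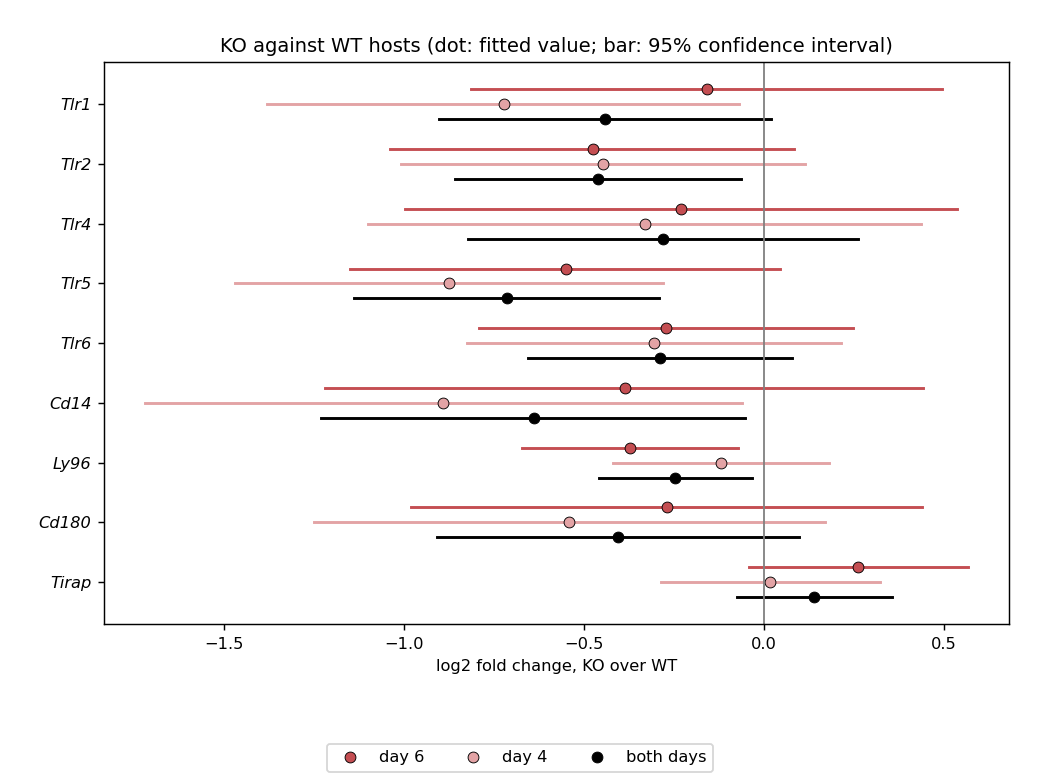
Log2 fold change of KO over WT for the 9 members (dots) with 95% confidence intervals from limma (bars), at day 6, at day 4 and over both days, with 2 arrays per group. All values but those of Tirap lie below 0, and over both days the intervals of Tlr2, Tlr5, Cd14 and Ly96 lie wholly below 0 before adjustment for the number of genes.

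Counted by overlap, both KO arrays lay below both WT arrays in 5 of 9 members at day 6 (Tlr2, Tlr5, Tlr6, Cd14 and Ly96), where 20.9% of all genes tested did so. At day 4 this held for 7 of 9 members, all but Tlr2 and Tirap, where 16.8% of all genes did. On both days it held for Tlr5, Tlr6, Cd14 and Ly96, 4 of 9 members, beside 4.72% of all genes. For each of these 4 genes the exact two-sided permutation test within days gave p = 0.0556, the smallest that the 36 exchanges allow, so this permutation test cannot reach 0.05 here. A gene without overlap on both days must give that value, so it adds nothing to the count. The other members had p of 0.111 to 0.333 in this test.

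Markers of macrophages and monocytes were also lower in KO hosts in their sum, without overlap on either day. Their summed signal over 11 of 12 listed genes was 128970 and 121840 in KO day 6, 148680 and 146200 in WT day 6, 119250 and 111760 in KO day 4, and 138170 and 165720 in WT day 4. All 11 were fitted below 0 in KO against WT over both days, with a median of -0.5, and 0 were called (limma, 7 at an unadjusted p under 0.05). At day 6 alone Mrc1 (0.162) and Fcgr1 (0.053) were fitted above 0 and the others below, with Lyz2 (-0.087) and Ccr2 (-0.092) near 0. The sum over 6 of 7 dendritic cell markers was 1111.8 to 1745.2 on KO arrays and 1835.5 to 3525.9 on WT arrays, also without overlap. Of these markers Cd209a alone was at 15.1 to 115.5 on KO arrays and 564.1 to 965.3 on WT arrays. Its log2 fold change over both days was -3.43 (adjusted p = 0.00787, limma). Itgax overlapped between the genotypes, and Flt3 was fitted above 0 (0.108) and the others below. The gap in the sum therefore does not stand for each marker. Across the 8 arrays, Pearson's r with the mean log2 signal of the macrophage and monocyte markers was 0.753 for Tlr1 and 0.804 for Tlr2, 0.219 to 0.569 for Tlr4, Tlr5, Tlr6, Cd14, Ly96 and Cd180, and -0.481 for Tirap. The part of these cells in the values of the members was not tested, and in whole tumour tissue fewer cells of a type and less RNA per cell cannot be told apart.

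**Figure D3:**
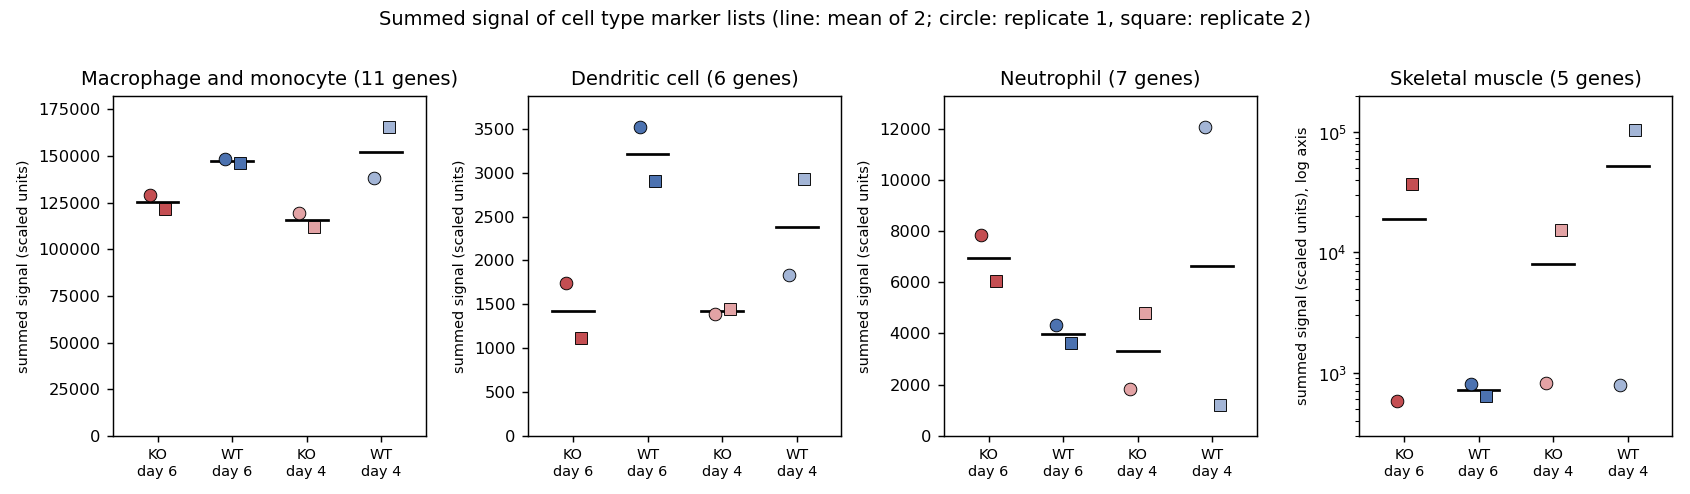
Summed signal (scaled units) of 4 cell type marker lists on the 8 arrays, with the 2 arrays of a group as a circle and a square and their mean as a line. The muscle panel has a log axis and the others start at 0. The macrophage and monocyte sums are 111760 to 128970 on KO arrays and 138170 to 165720 on WT arrays, the neutrophil sum is highest in WT day 4 replicate 1, and 3 arrays carry muscle signal.

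Set against the macrophage and monocyte markers of the same array, a scale chosen after the data were seen, all genes moved up: over both days the median of all genes in KO against WT was at 0.436, and 44.1% of all genes were called. On this scale KO against WT over both days was 0.154 for Tlr4, 0.146 for Tlr6, 0.189 for Ly96 and 0.0294 for Cd180, and it stayed below 0 for Tlr5 (-0.279), Cd14 (-0.205), Tlr2 (-0.0261) and Tlr1 (-0.00631). None of these 8 values was called, and each was below the median of all genes. Tirap was at 0.575 (adjusted p = 0.0227, limma), above that median, 1 of the 5726 genes called.

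**Figure D4:**
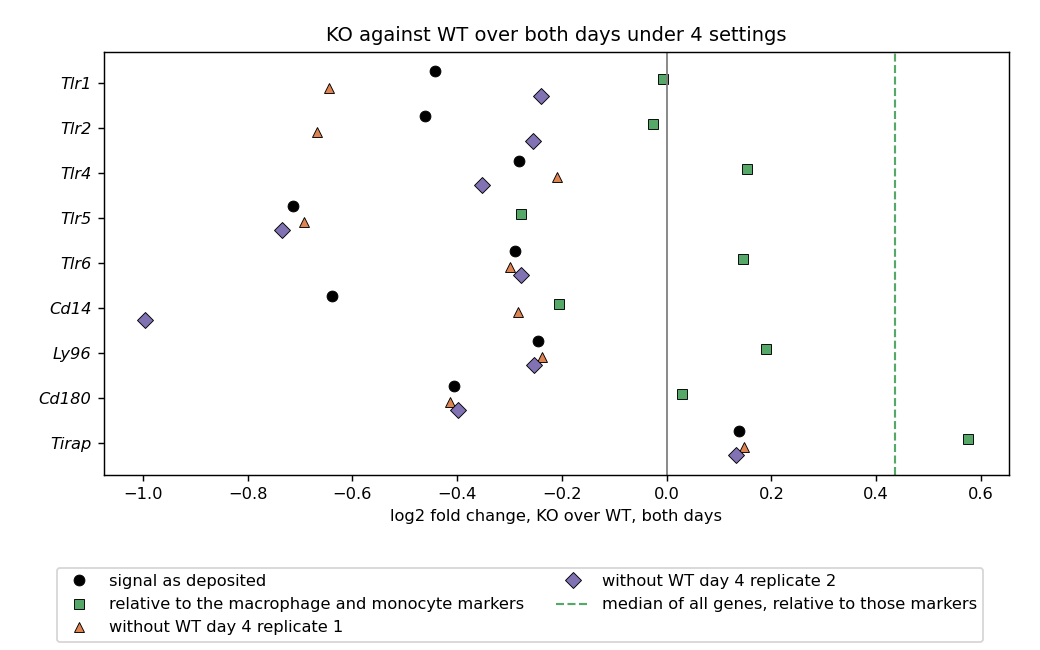
Log2 fold change of KO over WT over both days for the 9 members as deposited, relative to the macrophage and monocyte markers, and without either WT day 4 array. The dashed line marks the median of all genes, 0.436, on the marker scale. Cd14 runs between -0.996 and -0.284 with 1 WT day 4 array left out, and Tlr1 and Tlr2 move the other way.

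Between the days the members split. Ly96 fell at day 6 against day 4 over both genotypes, by 0.36 ± 0.0929 on the log2 scale (n = 4 arrays per day, adjusted p = 0.0266, limma), and it was the only member of 9 called. Among all genes tested 23.2% were called in this comparison. The call was lost in 6 of 8 fits that left out 1 array (adjusted p 0.0296 to 0.104), under centring on the median (adjusted p = 0.217) and with the methods' t-test (adjusted p = 0.0948). Tlr5 was at -0.59 ± 0.184 (adjusted p = 0.0512) and Tlr2 at 0.53 ± 0.174 (adjusted p = 0.0572), on opposite sides of 0. The other values were 0.14 for Tlr1, -0.43 for Tlr4, -0.25 for Tlr6, -0.44 for Cd14, -0.45 for Cd180 and 0.10 for Tirap, and none was called. Without WT day 4 replicate 2, Tlr2 (0.739, adjusted p = 0.00582) and Cd14 (-0.794, adjusted p = 0.00246) were called beside Ly96. Without WT day 4 replicate 1 they were at 0.327 and -0.0816 and were not called. Without KO day 6 replicate 1 Tlr4 was called (-0.695, adjusted p = 0.042) and Ly96 was not.

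Within KO hosts 0 of 9 members were called between the days, where 6.23% of all genes were, and within WT hosts 0 of 9, where 5.83% were (limma, 1 member at an unadjusted p under 0.05 in each, and 0 members with the methods' t-test after adjustment). Of all genes tested, 1796 above 0 and 1589 below were under 0.05 before adjustment in KO hosts (limma). In WT hosts it was 1990 and 1331. Without WT day 4 replicate 2, Tlr2 (0.959, adjusted p = 0.0277) and Cd14 (-1.4, adjusted p = 0.0102) were called in WT hosts, with the lone WT day 4 array assumed to vary like the others. Without WT day 4 replicate 1 they were at 0.137 and 0.0224 and were not called. Both day 6 arrays lay below both day 4 arrays in each genotype for Tlr5, Tlr6 and Ly96, 3 of 9 members, beside 15.5% of all genes. Tlr2 was at 0.52 in KO and 0.55 in WT hosts, whereas Tlr1, its partner, was at 0.43 in KO and -0.14 in WT hosts. The difference between those 2 values of Tlr1 was 0.56 ± 0.404 (adjusted p = 0.995, limma). The days also differed in genes that mark sex: Xist was at 5579.1 to 7121 on the 4 arrays of day 6 and 44.6 to 142.1 on the 4 of day 4, and Eif2s3y, on the Y chromosome, was at 10.2 to 33 at day 6 and 798.1 to 1176.7 at day 4. Day and sex cannot be told apart in these values.

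**Figure D5:**
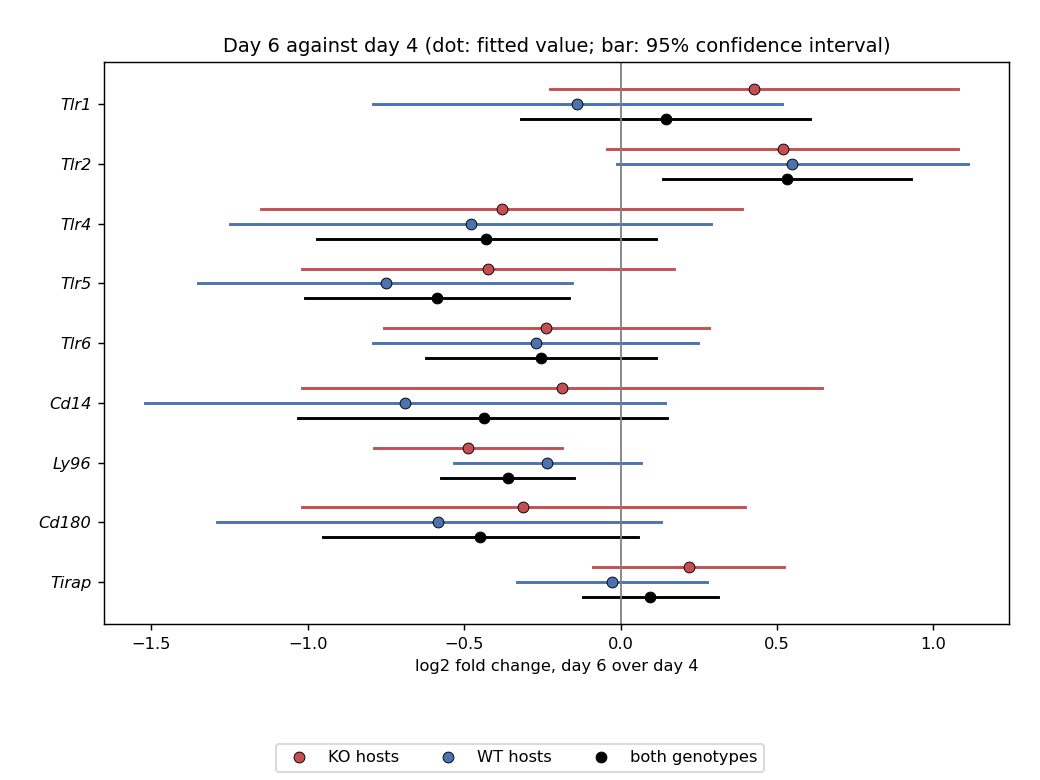
Log2 fold change of day 6 over day 4 for the 9 members (dots) with 95% confidence intervals from limma (bars), in KO hosts, in WT hosts and over both, with 2 arrays per group. Tlr2 lies above 0 in both genotypes, Tlr4, Tlr5, Tlr6, Cd14, Ly96 and Cd180 lie below 0 in both, and only Ly96 was called over both genotypes.

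Across the 8 arrays, which share host genotype, day and any other tissue in the piece, some members ran together. Pearson's r of log2 signals was 0.951 for Tlr5 and Tlr6, 0.922 for Tlr4 and Cd180, and 0.893 for Tlr5 and Cd180. Tlr1 and Tlr2 had 0.676, and Tlr2 was near 0 or below it with all other members (-0.269 to -0.0108). Tirap was below 0 with Ly96 (-0.759) and Tlr4 (-0.663). Among all genes tested, those most like Cd14 over the 8 arrays were Dpm1, Pkd2l2 and Mplkip (r 0.9413, 0.9327 and 0.9292), and those most like Tlr5 were Rab30, 1700096K18Rik and Gtf2a1 (0.9676, 0.9617 and 0.9599). Tlr2 was most like Sh3tc1, Arhgap31 and Pilrb1 (0.9764, 0.9688 and 0.9681), and Tlr4 most like Gm29538, Kbtbd7 and Zfp953 (0.953, 0.9434 and 0.934). With 12976 genes and 8 arrays such values are a description.

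Downstream of the surface receptors, 0 genes of the pathway lists were called between KO and WT by limma or, after adjustment, by the methods' t-test. Of 15 adaptors and kinases shared by the receptors, 5 were fitted above 0 and 10 below over both days (median -0.0308, limma, 1 at an unadjusted p under 0.05), and of 9 transcription factors 4 above and 5 below. Of 13 target genes of NF-kappaB that were tested, 6 were above and 7 below 0 (median -0.0332). The split was 8 above and 5 below at day 6 (median 0.263) and 4 above and 9 below at day 4 (median -0.339). Among them Il6, the cytokine gene, was at 1.095 ± 0.267 at day 6 (adjusted p = 0.711), 0.0216 ± 0.267 at day 4 (adjusted p = 0.996) and 0.56 ± 0.189 over both days (adjusted p = 0.481). The difference between its KO effects of the 2 days was 1.073 ± 0.377 (adjusted p = 0.995, limma). Of 6 targets of the TRIF arm, which TICAM2 opens for TLR4 and which TLR3 also uses, 5 were below 0 over both days (median -0.716), with the chemokine gene Ccl5 at -0.94 ± 0.223 (adjusted p = 0.341) and the antiviral gene Rsad2 at -0.79 ± 0.228 (adjusted p = 0.424). Ccl5 was alike at day 6 (-0.941) and day 4 (-0.949), while Rsad2 was at 0.148 at day 6 and -1.723 at day 4. Ifit1 (0.241 and -1.624), Cxcl10 (-0.034 and -1.448) and Ifit2 (-0.029 and -0.53) also had the lower fitted value at day 4. For Rsad2, Ifit1, Cxcl10 and Ifit2 the difference between the KO effects of the 2 days was not called (adjusted p = 0.995 for each, limma). The KO day 6 arrays were uneven, at 7055.7 and 1408.9 in Cxcl10 and 1661 and 646.9 in Ifit1. Ifnb1 was at -0.0716 and 0.329. The inhibitor Irak3 was at -0.54 ± 0.134 over both days (adjusted p = 0.372). The other genes of smallest p in their lists were Cnpy3 (-0.18), Irak2 (0.25), Ikbke (-0.31), Nfkb2 (0.32), Jun (0.22), Socs1 (0.50), Dcn (-0.33), Lum (-0.35) and Il12b (-0.66), at adjusted p of 0.489 to 0.711. None of these passed the test.

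Between the days several of these genes did pass, in a comparison that called 23.2% of all genes. Of the 15 adaptors and kinases, Myd88, the adaptor of all TLRs but TLR3, rose by 0.55 ± 0.121 at day 6 against day 4 over both genotypes (adjusted p = 0.0153, limma), as did the kinase gene Map3k7 (0.33), while Ticam1, the gene of TRIF, fell by 0.66 (adjusted p = 0.0141) and the kinase gene Ikbke by 0.54. Myd88 had signals of 4669.4 and 3671 in KO day 6, 4109.8 and 3121.1 in WT day 6, 2432.2 and 2169 in KO day 4, and 2904.6 and 3103.8 in WT day 4. Of 10 negative regulators 1 rose and 2 fell: Socs1, an inhibitor of cytokine signalling, rose by 1.54 ± 0.185 (adjusted p = 0.0026), and Irak3, a brake on TLR signalling, fell by 0.90 ± 0.134 (adjusted p = 0.00454), as did Dusp1, a phosphatase of MAP kinases (by 0.93). Irak3 was the 1 of these that was also called within each genotype.

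Of 13 NF-kappaB targets tested 4 rose and 0 fell (Il6, Il1b, Icam1 and Sod2, by 0.54 to 1.24), of 6 TRIF arm targets the chemokine gene Cxcl10 rose (2.90 ± 0.424, adjusted p = 0.00426), and of 9 transcription factors Nfkb2 rose by 0.65 and Fos fell by 0.91. Il6 was called within KO hosts (1.593) and not within WT hosts (0.52), and so were Sod2 (0.851 and 0.238) and Cxcl10 (3.609 and 2.195). Myd88 and Socs1 were likewise called within KO hosts only, and Il1b and Icam1 within neither. The difference between the genotypes in the change between days was called for 0 genes. Over both genotypes, of 14 genes of endogenous ligands 2 rose and 4 fell. The matrix protein tenascin C, the product of Tnc and a known ligand of TLR4, rose by 1.07 ± 0.12 (adjusted p = 0.00225), and the proteoglycan gene Sdc1 by 1.33 ± 0.173 (adjusted p = 0.00295). The proteoglycan genes Dcn (by 0.78) and Lum (by 0.74) and the heat shock genes Hspa1a (by 1.35) and Hspa1b (by 1.77) fell. Hsp90b1, the chaperone that surface TLRs need for folding, fell by 0.38 ± 0.0717 (adjusted p = 0.00859), 1 of 6 chaperones and ligand transfer partners called. Rsad2 rose within KO hosts (by 1.43, adjusted p = 0.0416) and was not called over both genotypes. The lipid receptor gene Cd36 (-0.756, adjusted p = 0.0723) and Ifnb1 (-0.585, adjusted p = 0.135), of small p in their lists, did not pass, and neither did Tlr3 (-0.31) or Tlr8 (-0.18). Centring each array on its median moved the median of all genes between the days over both genotypes to 0.174. Of the 21 pathway genes called over both genotypes, 21 then had the same direction and 18 were still called, and Hsp90b1 (-0.209, adjusted p = 0.201), Ikbke (-0.36, adjusted p = 0.0832) and Fos (-0.732, adjusted p = 0.0615) were not.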

How the data were processed

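RNA of tumour tissue was hybridised to 8 Affymetrix mouse arrays, 2 per group. For each probe set the authors deposited a linear signal intensity. The submitters' processing notes name MAS5 (version: not given in the sources used here), and the 2% trimmed mean was 1000 on every array. Genes were named from the platform annotation (34958 probe sets with 1 symbol, 932 with several, 9211 with none), and the brightest probe set (mean log2 signal) stood for a gene. Values were log2(signal + 16). The 12976 genes whose mean reached the 40th percentile of the probe sets entered limma 3.58.1 (R 4.3.3), with 4 groups, a trend on the mean and 4 residual degrees of freedom. A gene was called at a p under 0.05 after Benjamini-Hochberg adjustment. The fit was tested on simulated data with normal noise. The simulated shifts were larger than the KO against WT values of the members fitted on all 8 arrays. That test therefore does not bear on effects of their size. A fold change on this scale understates the change of dim genes, and the number of arrays limits the precision.

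The members and lists were chosen with earlier results of these data known. All members are named, with the 2 genes of smallest p of each pathway list in KO against WT over both days and in day 6 against day 4 over both genotypes, list genes that were called, and the 3 genes most like the 4 members that varied most. Labels share replicate numbers across groups, but deviations of arrays with the same number correlated at -0.12 to 0.274, so the fit had no replicate block. Alternatives were the normalization, the pseudocount, the filter, the choice of probe set, the groups in the fit, the trend, the block, the methods' t-test and leaving out arrays. Promoters were listed for 6 members; no genome build is named for the arrays.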

Additional observations from a re-analysis of the deposited data

How the results depend on the processing

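Over 23 other settings 1392 member values were computed, of which 1320 kept their direction and their side of the threshold, 43 changed sign, 10 lost a call and 19 gained one. Many settings could not change a fitted value, such as the trend, the block, the t-test or leaving out an array outside the comparison. The 1320 is therefore no measure of how firm the values are. In KO against WT the number of members called was 0 throughout at day 6, 0 to 1 at day 4 and 0 to 1 over both days when 1 array was left out, the 1 being Cd14 without WT day 4 replicate 2. Of 3 arrays with muscle signal the 2 highest were KO day 6 replicate 2 and WT day 4 replicate 2, and with both left out the number was 1 at day 4 and 1 over both days (Cd14). Relative to the macrophage markers it was 1 over both days (Tirap), where 44.1% of all genes were called. In day 6 against day 4 it was 0 to 2 in WT and 0 to 3 over both genotypes when 1 array was left out, and 2 in WT without those 2 muscle arrays (Tlr2 and Cd14). Over both genotypes it was 2 with a pseudocount of 64, with the mean of all probe sets and with no trend (Tlr5 and Ly96), 2 with a filter at the 60th percentile (Tlr2 and Ly96), 2 without those 2 arrays (Tlr2 and Cd14), and 0 with the methods' t-test and relative to the macrophage markers. Under centring on the median it was 1, with Tlr2 (0.709, adjusted p = 0.00994) in place of Ly96 (-0.185), and the median of all genes was then at 0.174. The cause of these changes was not tested.

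Relative to the macrophage markers the median of all genes in KO against WT was at 0.38 at day 6, 0.489 at day 4 and 0.436 over both days, a shift that all genes share by construction. The values changed sign at day 6 for Tlr1 (0.23), Tlr4 (0.159), Tlr6 (0.117), Cd14 (0.00156), Ly96 (0.0162) and Cd180 (0.119), at day 4 for Tlr2 (0.0347), Tlr4 (0.15), Tlr6 (0.175) and Ly96 (0.362), over both days for Tlr4 (0.154), Tlr6 (0.146), Ly96 (0.189) and Cd180 (0.0294), and the difference between days for Tlr6 (-0.0582). With the mean of all probe sets Tirap was at -0.00804 at day 4. Without the 2 arrays with the most muscle signal Tlr4 was at 0.301 and Cd180 at 0.116 at day 6, day 6 against day 4 in KO was 0.153 for Tlr4 and 0.0743 for Cd180, and in WT 0.267 for Tlr1. Centring on the median gave 0.0471 for Tlr1 and 0.158 for Tirap between days in WT.

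With 1 array left out, KO against WT at day 6 ran over -0.763 to 0.301 for Tlr4 and -0.657 to 0.116 for Cd180, and at day 4 over -0.0823 to 0.117 for Tirap. Day 6 against day 4 ran over -0.911 to 0.153 for Tlr4 and -0.699 to 0.0743 for Cd180 in KO, over -0.543 to 0.267 for Tlr1, -1.4 to 0.0224 for Cd14 and -0.0862 to 0.0336 for Tirap in WT, and over -0.0579 to 0.347 for Tlr1 over both genotypes. The KO effect at day 6 minus that at day 4 ran over -0.441 to 0.382 for Tlr2, -0.431 to 0.632 for Tlr4, -0.125 to 0.192 for Tlr6, -0.208 to 1.22 for Cd14 and -0.116 to 0.657 for Cd180.

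The count of all genes called moved as well. Over all settings it was 0 to 26 at day 6, 0 to 408 at day 4 and 0 to 5726 over both days in KO against WT, where the main values were 2, 2 and 4, and 1163 to 3912 between days over both genotypes, where it was 3006. With the replicate number as a block, 0 members were called in KO against WT on each day and 1, Ly96, between days over both genotypes, as without it, while between days it called 325 genes in KO, against 809 without it, and 463 in WT, against 756. Exchanging the numbers of WT day 6 in the block, added after the data were seen, gave 0 and 1 members in the same comparisons. Detection calls were not used here, and the whole fit has 4 residual degrees of freedom.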
